A study of Arabidopsis thaliana with 21 samples.

Results

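The cell cycle genes described here are 45 genes of Arabidopsis thaliana, followed in roots before and after treatment with AtCEP5, a member of the C-TERMINALLY ENCODED PEPTIDE family of secreted signals. They comprise 8 B-type, 7 A-type and 9 D-type cyclins, 5 cyclin-dependent kinases (CDKs) of the A and B types, and 8 CDK inhibitors, KRP1 to KRP7 and SIM. With them stand the kinase WEE1, the 3 E2F factors with DEL1 and RBR1, and CCS52A1 and CCS52A2, which activate the anaphase-promoting complex. They were taken by locus identifier from the 32833 genes of the deposited count table, and the rule for taking them used no measured value. The genes were, however, chosen with earlier results of these data known. All 45 were among the 19938 genes that passed the filter on low counts.

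The 7 groups held 3 libraries each, 21 in all. The first was sampled before treatment, at 0 h, and the others were sampled 6, 12 and 24 h after mock treatment or after treatment with AtCEP5. Per the labels the material was root tissue described as root meristem cells, with no genotype, age, medium or peptide dose stated. Whether replicates came from separate cultures is not stated either, so each p-value speaks only of variation among the libraries at hand, part of which may be technical. Total counts per library ranged from 10334319 to 14345476, of which 8052 to 12816 fell on the 45 genes. The share of counts on ribosomal RNA genes was 0.2703% to 0.6009% in 19 libraries, 2.196% in the second mock library at 6 h and 1.962% in the third AtCEP5 library at 12 h. Beside root meristem genes, markers of root hairs, endodermis, xylem, root cap, lateral root primordia and shoot had reads in every group. No marker was at 0 over the 3 libraries of a group, although the shoot marker LHCB1.1 was at 0 FPKM in its lowest library. RNA of genes that mark other cell types than the labelled one was thus read, and which tissues were present was not tested. In such bulk samples, fewer cells of a type and less RNA per cell cannot be told apart.

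Progress through the plant cell cycle is driven by CDKs, which are active only while bound to a cyclin. D-type cyclins act at the entry into DNA synthesis, where their kinase complexes phosphorylate the retinoblastoma protein RBR1 and so release E2F factors. A-type cyclins act from DNA synthesis towards mitosis, and B-type cyclins with B-type CDKs act at mitosis. KRP and SIM proteins bind and inhibit the complexes, WEE1 holds back CDKs when DNA replication is disturbed, and CCS52 proteins direct the anaphase-promoting complex to cyclins, which are then degraded. In roots these genes are best known from the meristem at the tip, where cells divide before they elongate.

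The stretches upstream of 4 of the genes whose levels are followed below are printed to show a motif of mitotic genes in a pair of B-type cyclins, and a D-type cyclin and an inhibitor without it. Genes of mitosis often carry the M-specific activator (MSA) element, bound by MYB3R-type factors, and its core AACGG was searched on both strands, where it reads CCGTT on the other strand. Each sequence is the 250 bases before the annotated gene start in RefSeq's TAIR10.1 reference, 5′ to 3′ on the gene's strand. Capitals mark the MSA core. The windows are chr4:17624309-17624558 on the minus strand for CYCB1;1, chr1:7137829-7138078 on the minus strand for CYCB2;3, chr1:26439306-26439555 on the plus strand for CYCD1;1 and chr2:13873112-13873361 on the plus strand for KRP4.
CYCB1;1: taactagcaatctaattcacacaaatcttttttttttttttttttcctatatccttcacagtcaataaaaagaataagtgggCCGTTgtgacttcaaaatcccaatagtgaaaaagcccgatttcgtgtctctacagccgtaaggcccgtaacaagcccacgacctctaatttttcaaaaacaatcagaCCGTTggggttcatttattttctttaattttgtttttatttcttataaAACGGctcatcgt
CYCB2;3: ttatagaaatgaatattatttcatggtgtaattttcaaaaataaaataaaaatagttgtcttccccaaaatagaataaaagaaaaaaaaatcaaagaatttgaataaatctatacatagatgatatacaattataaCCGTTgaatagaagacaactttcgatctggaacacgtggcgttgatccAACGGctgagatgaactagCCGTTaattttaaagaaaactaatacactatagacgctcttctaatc
CYCD1;1: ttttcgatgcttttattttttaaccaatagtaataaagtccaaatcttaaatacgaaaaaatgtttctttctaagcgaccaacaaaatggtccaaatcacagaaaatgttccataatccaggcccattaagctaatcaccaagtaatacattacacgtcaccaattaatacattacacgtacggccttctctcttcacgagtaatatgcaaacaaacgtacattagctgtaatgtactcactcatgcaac
KRP4: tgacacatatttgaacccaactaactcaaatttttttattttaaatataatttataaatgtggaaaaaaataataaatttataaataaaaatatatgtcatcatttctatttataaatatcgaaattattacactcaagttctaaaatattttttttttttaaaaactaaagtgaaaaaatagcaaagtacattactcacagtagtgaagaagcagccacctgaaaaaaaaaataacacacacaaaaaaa

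The mitotic cyclins AT4G37490 and AT1G20610 each held 3 MSA cores, at −168, −61 and −13 and at −114, −66 and −47 counted from the gene start to the first base of the match, whereas the D-type cyclin and the inhibitor held none. The core was present in 18 of the 45 upstream windows (40%), against 20.6% of the windows of 27437 protein-coding genes. It was in 6 of 8 B-type cyclins (75%), 3 of 7 A-type cyclins (42.9%), 1 of 9 D-type cyclins (11.1%), 1 of 5 CDKs (20%) and 4 of 8 inhibitors (50%). The core thus did not separate mitotic cyclins from the rest: CYCB1;4 and CYCB2;4 had none, whereas the inhibitor KRP1 had 6 and KRP7 had 3. Among other genes, 13 of 19 genes of mitosis and cytokinesis (68.4%) and 1 of 12 genes of DNA replication (8.33%) held it. E2F factors are known to bind sites such as TTTCCCGC, TTTGGCGC and TTTCGCGC, and 1 of these, on either strand, was in 2 of the 45 windows, those of RBR1 at −76 and of CYCD3;3 at −104. The same sites were in 1.13% of all the windows and in 5 of the 12 replication genes (41.7%). The windows of CYCD3;1, CDKB1;1, CDKB2;1 and RBR1 reach into a neighbouring gene. Among these are the 1 D-type cyclin with an MSA core, CYCD3;1, and 1 of the 2 windows with an E2F site, that of RBR1. These are matches of letters and not binding sites.

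All 45 genes were read in every group, but at levels that spanned a wide range. Levels between genes are compared in FPKM, reads scaled to transcript length and to the size of the library, as the median over the 21 libraries. CYCD2;1 (AT2G22490), a D-type cyclin that responds to sucrose, and CDKA;1 (AT3G48750), the main CDK of the plant cell cycle, stood highest at 35.3 and 35.2 FPKM. Next came CDKB2;1 (AT1G76540), a mitotic CDK, at 31.7 FPKM and the inhibitor KRP2 (AT3G50630) at 31.6 FPKM. The ranges of these 4 genes overlapped, the widest being 20.9 to 55 FPKM for KRP2. At the other end, CYCA2;1 (AT5G25380), CYCD6;1 (AT4G03270), known for the asymmetric divisions of the ground tissue, and CYCD4;2 (AT5G10440) had medians of 1.03, 1.08 and 1.20 FPKM, and their ranges overlapped as well. The middle of the 45 medians was 8.84 FPKM, close to the 8.07 FPKM of the 21750 genes with a median above 0. By role, the middle medians were 18.4 FPKM for the CDKs, 11.9 for D-type and 10.6 for B-type cyclins, 8.5 for the inhibitors, 7.24 for the CCS52 genes, 6.17 for A-type cyclins, and 4.48 for the E2F group.

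**Figure D1:**
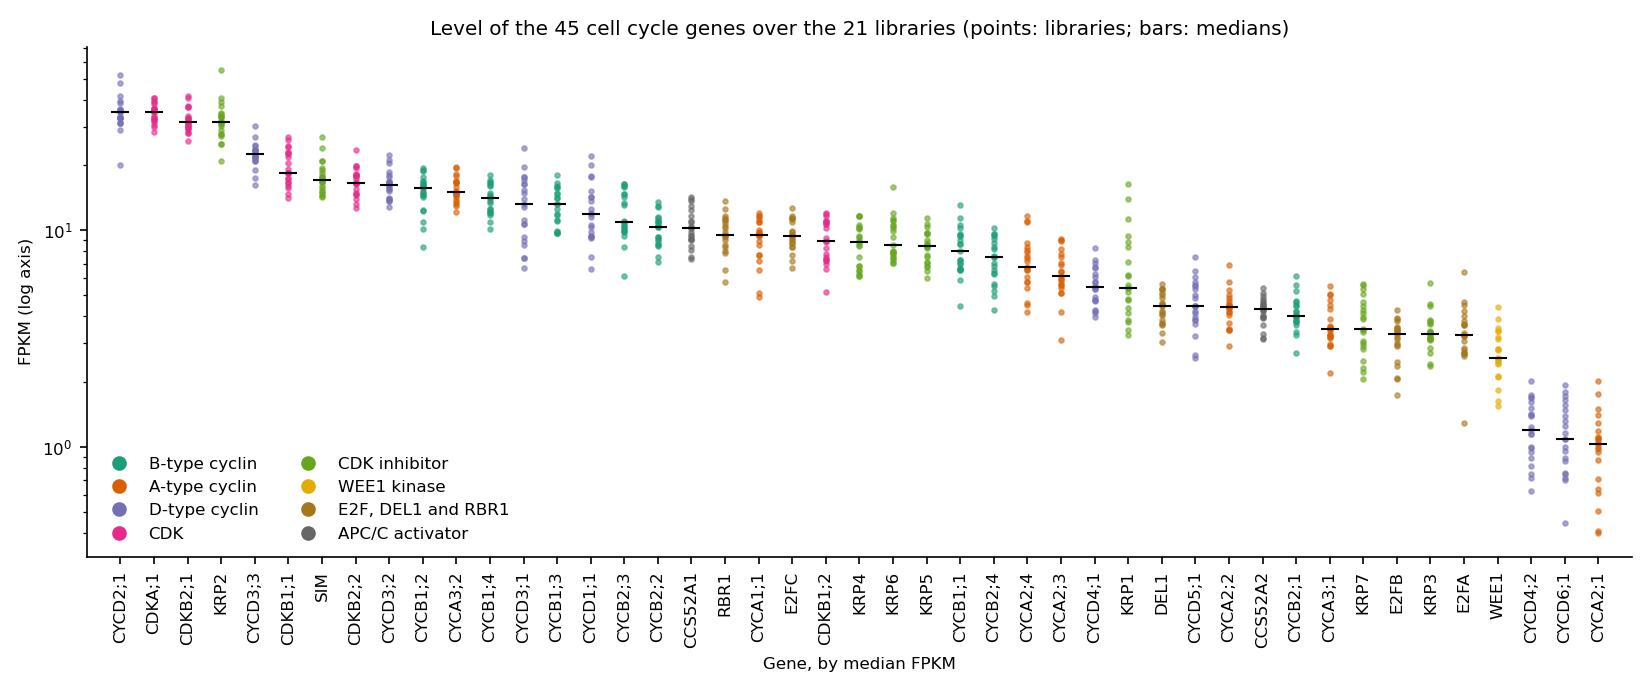
FPKM of each of the 45 genes in the 21 libraries, on a log axis, with genes ordered along the horizontal axis by their median, 1 point per library coloured by role and a bar at the median. CYCD2;1, CDKA;1, CDKB2;1 and KRP2 lie highest, with medians of 31.6 to 35.3 FPKM, and CYCA2;1, CYCD6;1 and CYCD4;2 lowest, with medians of 1.03 to 1.20 FPKM.

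The first comparison set AtCEP5 against mock at the same time, and so asked what the peptide changed beyond the handling of the roots. In it, rose and fell mean higher or lower than mock, and not a change since before treatment. Whether the libraries of 2 groups overlapped is given only as a description. How often they were apart over all genes was not counted. The cell cycle genes did not move as a block. At 6 h 2 were higher and 2 lower (edgeR's quasi-likelihood test, Benjamini-Hochberg adjusted p under 0.05 over all genes tested), beside 5.94% of all genes higher and 5.33% lower. At 12 h 2 were higher and 2 lower, beside 6.71% and 5.41% of all genes, and at 24 h 2 were higher and 0 lower, beside 3.70% and 4.12%. At 24 h 3 genes were lower at an unadjusted p under 0.05 in edgeR, DESeq2 called 1 lower and limma 0. For the average of the 3 times 5 were higher and 8 lower, beside 14.8% and 15.5% of all genes. The share of the 45 that passed was 8.89% at 6 h, 8.89% at 12 h, 4.44% at 24 h and 28.9% for the average, near the background in each case. Their median log2 fold changes of 0.04, −0.07 and −0.01 at 6, 12 and 24 h and 0.03 for the average lay beside medians of 0.01, −0.02, 0.00 and 0.00 over all genes. Any difference among the 7 groups passed in 21 of the 45 (46.7%), beside 45.7% of all genes.

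**Figure D2:**
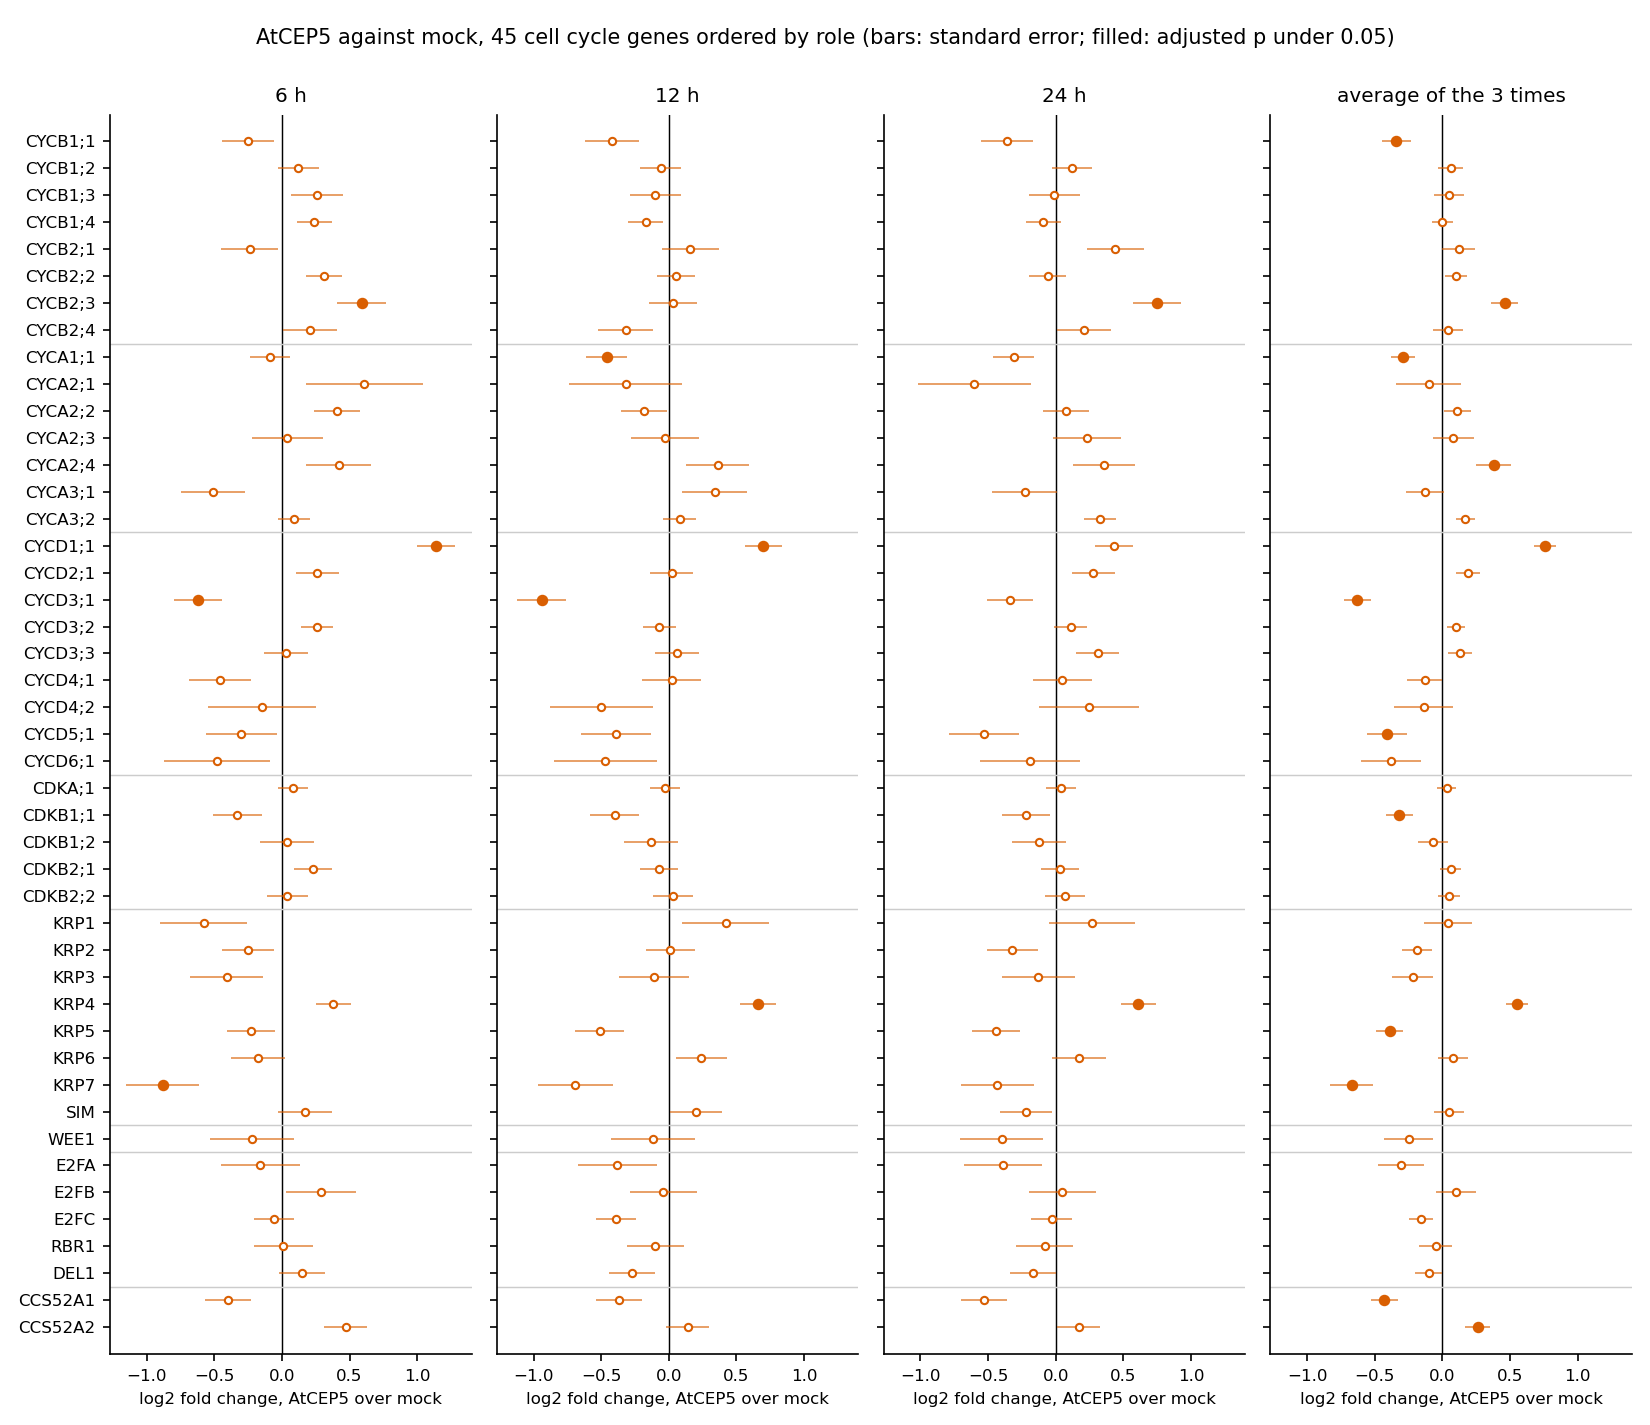
Log2 fold change of AtCEP5 against mock with its standard error for the 45 genes at 6, 12 and 24 h and for the average of the times, in panels that share 1 horizontal axis, with filled points for genes that passed at an adjusted p under 0.05. In the average most genes lie near 0, and those farthest from it are CYCD1;1 (0.76) and KRP4 (0.55) on the higher side and KRP7 (−0.67) and CYCD3;1 (−0.63) on the lower side.

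Among D-type cyclins, 2 genes passed at 6 and 12 h, in opposite directions. Over all genes 5.94% and 6.71% were higher at these times, and 5.33% and 5.41% lower. CYCD1;1 (AT1G70210), which acts early in the re-entry of embryo cells into division at germination, was higher with AtCEP5. In CPM, counts per unit of TMM-scaled library size, it stood at 23.3, 24.6 and 20.0 in the mock libraries at 6 h and at 55.2, 49.6 and 44.7 in the AtCEP5 libraries. The lowest peptide library thus lay well above the highest mock library. At 12 h the mock values were 23.8, 23.4 and 25.9 CPM and the AtCEP5 values 37.6, 44.3 and 37.0 CPM, and at 24 h they were 17.4, 24.0 and 25.1 CPM against 31.4, 29.0 and 29.3 CPM. The groups did not overlap at any of the 3 times. The log2 fold change was smallest at 24 h, but no difference between times passed. The gene rose 2.2-fold at 6 h (log2 fold change 1.14 ± 0.14, SE, adjusted p = 1.46e-05, edgeR) and 1.63-fold at 12 h (0.70 ± 0.14, adjusted p = 0.00151). At 24 h the difference of 0.43 ± 0.14 did not pass (adjusted p = 0.0673, edgeR), although it did without mock 24 h replicate 3 (0.52, adjusted p = 0.0423) and in DESeq2 (adjusted p = 0.0394). Averaged over the times it was higher by 0.76 ± 0.08 (adjusted p = 2.42e-07, edgeR). An overlapping gene on the opposite strand, AT1G70209, shares 144 exon bases with it and had 0 reads in every library.

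CYCD3;1 (AT4G34160), a D-type cyclin known to be induced by cytokinin and to promote the entry into DNA synthesis, was lower with AtCEP5. Its CPM at 6 h were 31.2, 27.3 and 29.7 in mock and 21, 16.5 and 20.1 with the peptide. At 12 h mock libraries held 33.5, 30.7 and 32.4 CPM and AtCEP5 libraries 13.7, 20.0 and 16.7 CPM. By 24 h the values were 26.0, 35.7 and 43.4 CPM in mock and 31.7, 27.7 and 23.6 CPM with AtCEP5. The groups were apart at 6 and 12 h and overlapped at 24 h. The gene was lower than in mock at 6 h (log2 fold change −0.62 ± 0.18, adjusted p = 0.0247, edgeR) and 1.91-fold lower at 12 h (−0.94 ± 0.18, adjusted p = 8.97e-04, edgeR). It did not pass at 24 h (−0.34 ± 0.17, adjusted p = 0.279, edgeR). Its average was −0.63 ± 0.10 (adjusted p = 4.63e-05, edgeR). The 6 h call was lost without AtCEP5 6 h replicate 2 (adjusted p = 0.126), without mock 6 h replicate 1 (0.078) or replicate 3 (0.0592), and with limma on log2 FPKM (0.0681). It shares 40 exon bases on the same strand with AT4G34150, whose own changes of −0.03, 0.02 and −0.14 at the 3 times did not pass.

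The ratio of these 2 D-type cyclins in FPKM, chosen after their values were seen, is given as a description. It was 2.13, 1.46 and 1.54 before treatment. In mock libraries CYCD3;1 was the more abundant at every time, with ratios of 0.559, 0.673 and 0.504 at 6 h, 0.531, 0.570 and 0.598 at 12 h, and 0.501, 0.501 and 0.432 at 24 h. In AtCEP5 libraries CYCD1;1 was the more abundant at 6 h (1.97, 2.25 and 1.66) and 12 h (2.05, 1.66 and 1.66) but not at 24 h (0.740, 0.783 and 0.930). All mock libraries thus lay below 1, and the peptide libraries lay above it at 6 and 12 h and below it at 24 h. Whether the ratio differed between times was not tested.

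**Figure D3:**
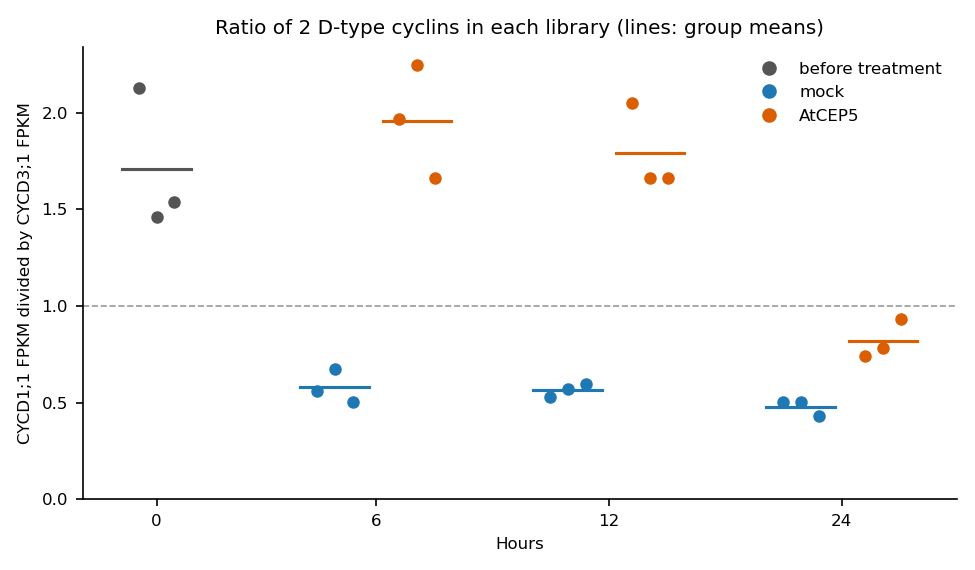
FPKM of CYCD1;1 divided by FPKM of CYCD3;1 in each of the 21 libraries, by hours of treatment, with 1 point per library, group means as lines and a dashed line at 1. Mock libraries lie between 0.432 and 0.673, and AtCEP5 libraries lie between 1.66 and 2.25 at 6 and 12 h and between 0.740 and 0.930 at 24 h.

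Of the other 7 D-type cyclins, 1 passed, for the average alone, beside 15.5% of all genes lower. CYCD5;1 (AT4G37630), a D-type cyclin linked to natural variation in endoreduplication, had 7.94, 10.4 and 12.9 CPM in mock against 8.31, 10.1 and 6.87 CPM with AtCEP5 at 6 h. The corresponding values were 9.40, 7.17 and 10.5 against 7.26, 8.24 and 5.08 CPM at 12 h, and 8.67, 11 and 13.4 against 5.99, 9.97 and 7.01 CPM at 24 h. The groups overlapped at each time and no single time passed. The average passed narrowly (−0.41 ± 0.15, adjusted p = 0.0429, edgeR). It kept passing without AtCEP5 6 h replicate 2, 12 h replicate 2 or 24 h replicate 2, or without mock 6 h replicate 1, 12 h replicate 2 or 24 h replicate 1, and it was lost without any 1 of the other 12 libraries (adjusted p 0.0518 to 0.0984), without the 2 libraries highest in ribosomal RNA (0.115) and with limma (0.0875). The remaining 6 were CYCD2;1, CYCD3;2 (AT5G67260), CYCD3;3 (AT3G50070), CYCD4;1 (AT5G65420), CYCD4;2 and CYCD6;1, and none of them passed at any time or for the average. Their averages ran from −0.38 ± 0.22 for CYCD6;1, which was read at about 1.08 FPKM, to 0.19 for CYCD2;1. Among the CYCD3 genes, CYCD3;2 and CYCD3;3 had averages of 0.10 and 0.13 beside the −0.63 of CYCD3;1.

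**Figure D4:**
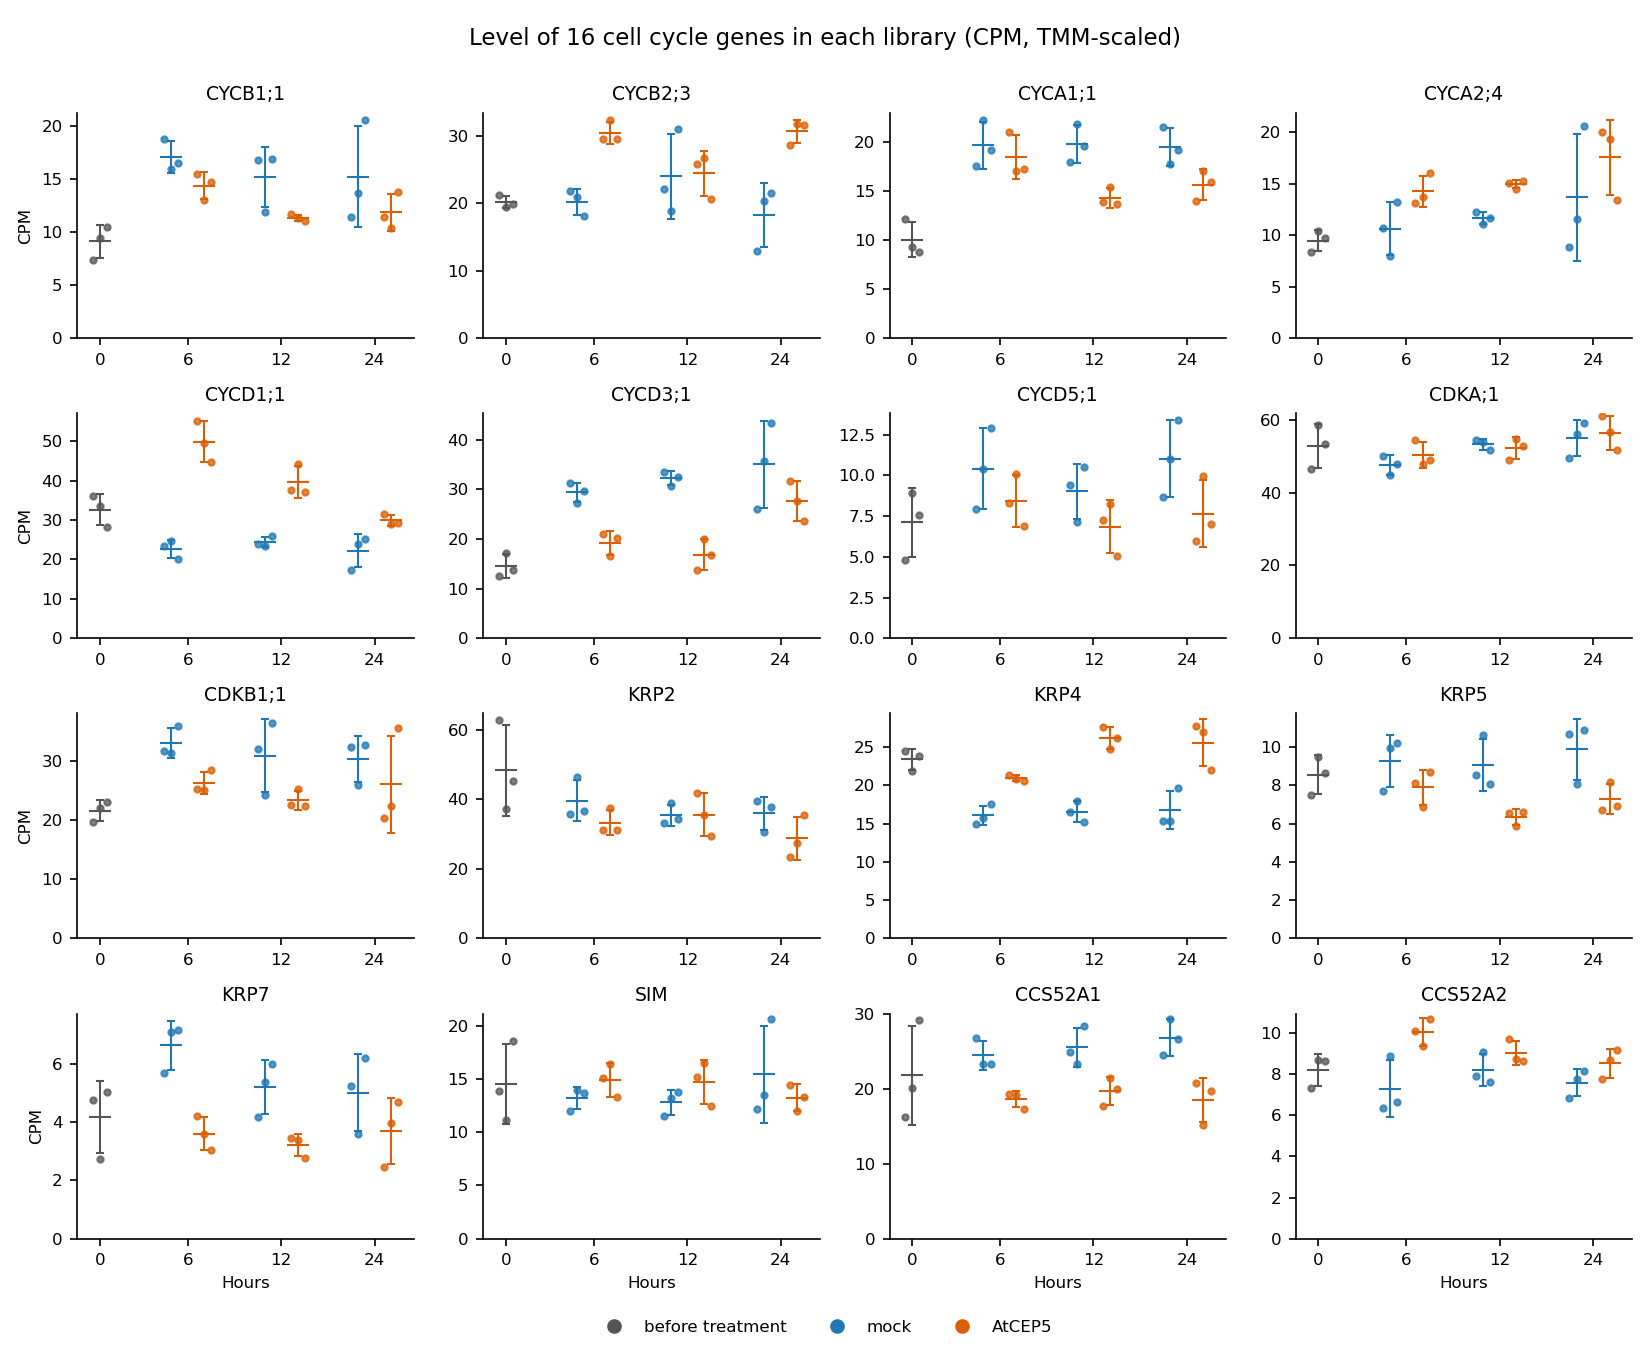
CPM of the 16 genes named for AtCEP5 against mock in each library, by hours, with 1 point per library, 1 panel per gene and axes that start at 0. CYCD1;1 and KRP4 are higher in AtCEP5 than in mock libraries at all 3 times, with no overlap, and CYCD3;1 is lower at 6 and 12 h.

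Among B-type cyclins, which act with CDKs at mitosis, 2 of 8 passed for the average and 1 of them at single times. Over all genes 14.8% were higher and 15.5% lower for the average, so the count of 2 was near the background. The shares of all genes higher were 5.94% at 6 h and 3.70% at 24 h. CYCB2;3 (AT1G20610) had 21.8, 20.9 and 18.1 CPM in mock and 29.5, 32.4 and 29.6 CPM with AtCEP5 at 6 h. At 12 h the values were 22.1, 18.9 and 31.0 against 25.9, 26.8 and 20.6 CPM, and at 24 h they were 12.9, 20.4 and 21.5 against 28.7, 31.8 and 31.6 CPM. The groups were apart at 6 and 24 h and overlapped at 12 h. The gene rose at 6 h (log2 fold change 0.59 ± 0.18, adjusted p = 0.0334, edgeR) and at 24 h (0.75 ± 0.18, adjusted p = 0.00963), while 12 h gave 0.03 ± 0.18 (adjusted p = 0.943). The average was 0.46 ± 0.10 (adjusted p = 0.0016, edgeR). The 6 h call was lost without any 1 of the 6 libraries (adjusted p 0.0513 to 0.126), and the 24 h call without mock 24 h replicate 1 (0.55, adjusted p = 0.0656).

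CYCB1;1 (AT4G37490), the B-type cyclin widely used as a marker of cells about to divide, leaned the other way. It had 18.8, 16 and 16.5 CPM in mock against 15.5, 13 and 14.7 CPM with AtCEP5 at 6 h, and 16.8, 11.9 and 16.9 against 11.7, 11.3 and 11.1 CPM at 12 h. At 24 h it had 11.4, 13.7 and 20.6 against 11.4, 10.4 and 13.8 CPM. The peptide libraries were all lower at 6 and 12 h, by less than the test needed, and the groups overlapped at 24 h. The log2 fold changes of −0.25 ± 0.19, −0.42 ± 0.20 and −0.36 ± 0.19 did not pass (adjusted p = 0.474, 0.184 and 0.326, edgeR), whereas the average did (−0.34 ± 0.11, adjusted p = 0.0244). The call for the average was lost without AtCEP5 6 h replicate 2 or 24 h replicate 2, or without mock 6 h replicate 1, 12 h replicate 1, 12 h replicate 3 or 24 h replicate 3 (adjusted p 0.053 to 0.069), and with limma (0.0724). The other 6 B-type cyclins, CYCB1;2, CYCB1;3 (AT3G11520), CYCB1;4 (AT2G26760), CYCB2;1 (AT2G17620), CYCB2;2 and CYCB2;4, did not pass in any of these comparisons, and their averages lay between 0.00 and 0.12. Beside the 0.75 of CYCB2;3 at 24 h, CYCB2;1, CYCB2;2 and CYCB2;4 had 0.44, −0.06 and 0.21.

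Of the 7 A-type cyclins, 1 passed at a single time and 2 for the average, in opposite directions. The 2 were near the background, with 14.8% of all genes higher and 15.5% lower for the average. At 12 h 5.41% of all genes were lower. CYCA1;1 (AT1G44110), an A-type cyclin of the mitotic phase, had 17.5, 22.2 and 19.1 CPM in mock against 21, 17.0 and 17.2 CPM with AtCEP5 at 6 h. At 12 h it had 17.9, 21.8 and 19.5 against 13.8, 15.4 and 13.6 CPM, and at 24 h 21.5, 17.7 and 19.1 against 13.9, 17.0 and 15.9 CPM. The groups overlapped at 6 h and were apart at 12 and 24 h. The gene fell at 12 h (−0.46 ± 0.15, adjusted p = 0.046, edgeR) and did not pass at 6 h (−0.09 ± 0.15, adjusted p = 0.767) or 24 h (−0.31 ± 0.15, adjusted p = 0.247). The 12 h call was lost without any 1 of its 6 libraries (adjusted p 0.0678 to 0.208) and under most other settings. The average of −0.29 ± 0.09 passed (adjusted p = 0.0139, edgeR), but not without the 2 libraries highest in ribosomal RNA (−0.24, adjusted p = 0.0669), an alternative chosen after seeing the data.

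CYCA2;4 (AT1G80370), a cyclin of the group that restrains endoreduplication together with CDKB1 kinases, had 10.7, 8 and 13.2 CPM in mock and 13.1, 13.7 and 16 CPM with AtCEP5 at 6 h. The values were 12.3, 11.1 and 11.7 against 15.1, 14.5 and 15.3 CPM at 12 h, and 8.83, 11.6 and 20.6 against 20.0, 19.3 and 13.4 CPM at 24 h. The groups were apart at 12 h alone, and mock 24 h replicate 3 lay far above the other mock libraries of its time. No time passed (0.42 ± 0.24, 0.36 ± 0.23 and 0.36 ± 0.23, adjusted p = 0.285, 0.363 and 0.428, edgeR), and the average did (0.38 ± 0.13, adjusted p = 0.0357). Without mock 24 h replicate 3 the 24 h difference was 0.77 and passed (adjusted p = 0.0207). The average was lost without AtCEP5 6 h replicate 3, 12 h replicate 1, 24 h replicate 1 or 24 h replicate 2, or without mock 6 h replicate 2, 12 h replicate 2, 24 h replicate 1 or 24 h replicate 2 (adjusted p 0.0522 to 0.078), and without the 2 libraries highest in ribosomal RNA (0.0884). The other 5 A-type cyclins, CYCA2;1, CYCA2;2 (AT5G11300), CYCA2;3 (AT1G15570), CYCA3;1 (AT5G43080) and CYCA3;2 (AT1G47210), did not pass. Their averages lay between −0.13 (CYCA3;1) and 0.17 (CYCA3;2), the CYCA3 genes being cyclins of DNA synthesis. CYCA2;1, the least abundant of the 45 genes, had −0.10 ± 0.24, with 0.61 ± 0.43, −0.32 ± 0.42 and −0.60 ± 0.42 at the 3 times.

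The kinase CDKA;1, which partners D-type and A-type cyclins and was 1 of the 2 most abundant of the 45 genes, gave no call. Its CPM were 50.1, 44.7 and 47.8 in mock and 54.4, 47.7 and 48.9 with AtCEP5 at 6 h, 54.5, 53.8 and 51.6 against 49.0, 54.8 and 52.7 at 12 h, and 49.5, 56.0 and 59.2 against 60.9, 56.5 and 51.7 at 24 h. The groups overlapped at all 3 times. The log2 fold changes were 0.08, −0.03 and 0.04, each ± 0.11 (adjusted p = 0.718, 0.899 and 0.918, edgeR). Their average was 0.03 ± 0.07 (adjusted p = 0.785).

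CDKB1;1 (AT3G54180), a B-type CDK active around the entry into mitosis, had 31.7, 31.4 and 35.9 CPM in mock against 25.3, 25.1 and 28.5 CPM with AtCEP5 at 6 h. At 12 h it had 32.1, 24.2 and 36.4 against 22.5, 25.2 and 22.4 CPM, and at 24 h 32.4, 25.9 and 32.7 against 20.3, 22.4 and 35.5 CPM. The groups were apart at 6 h and overlapped later. The log2 fold changes of −0.33, −0.40 and −0.22, each ± 0.18, did not pass (adjusted p = 0.259, 0.153 and 0.569, edgeR), and the average did (−0.32 ± 0.10, adjusted p = 0.0215). The average was lost without AtCEP5 6 h replicate 2 or 24 h replicate 1 or replicate 2, or without mock 12 h replicate 3 (adjusted p 0.0532 to 0.0704), and without the 2 libraries highest in ribosomal RNA (0.0506). It shares 71 exon bases with AT3G54190 on the opposite strand, which moved the other way (average 0.25, adjusted p = 0.00411, edgeR). The other 3 mitotic kinases, CDKB1;2 (AT2G38620), CDKB2;1 and CDKB2;2 (AT1G20930), did not pass and had averages of −0.07, 0.06 and 0.05.

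Among the CDK inhibitors, 1 rose and 2 fell for the average, beside 14.8% and 15.5% of all genes. KRP4 (AT2G32710) encodes a KRP protein tied to the control of cell size at the start of DNA synthesis. Its CPM were 15, 15.7 and 17.5 in mock and 21.4, 20.8 and 20.6 with AtCEP5 at 6 h, 16.5, 18 and 15.2 against 27.6, 24.8 and 26.2 at 12 h, and 15.3, 15.3 and 19.6 against 27.7, 27.0 and 22.0 at 24 h. Every AtCEP5 library lay above every mock library of its time. The gene was 1.58-fold higher than in mock at 12 h (log2 fold change 0.66 ± 0.13, adjusted p = 0.00137, edgeR) and 1.53-fold higher at 24 h (0.61 ± 0.13, adjusted p = 0.0042), and 6 h gave 0.38 ± 0.13 (adjusted p = 0.0651). The 24 h call was lost in the fit of the 6 libraries compared, without (adjusted p = 0.0643) and with the replicate block (0.147). The average was 0.55 ± 0.08 (adjusted p = 7.10e-06, edgeR). It shares 926 exon bases with AT2G32720 on the opposite strand, a gene of 887 to 1562 reads per library that was lower with AtCEP5 (average −0.27, adjusted p = 0.00862, edgeR). Whether reads were counted by strand is not given in the sources used here, and what the overlap adds to the count of KRP4 was not tested.

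KRP7 (AT1G49620), a KRP inhibitor known from pollen development, was read at low levels. It had 5.68, 7.09 and 7.17 CPM in mock and 4.20, 3.59 and 3.04 CPM with AtCEP5 at 6 h, 4.19, 5.39 and 6.01 against 3.47, 3.40 and 2.78 CPM at 12 h, and 5.23, 3.59 and 6.22 against 2.46, 3.96 and 4.7 CPM at 24 h. The peptide libraries were all lower at 6 and 12 h, and the groups overlapped at 24 h. The gene fell at 6 h (−0.88 ± 0.27, adjusted p = 0.0386, edgeR), and the differences of −0.69 ± 0.28 and −0.43 ± 0.27 at 12 and 24 h did not pass (adjusted p = 0.114 and 0.424). Its average was −0.67 ± 0.16 (adjusted p = 0.00252, edgeR). The 6 h call was lost without any 1 of its 6 libraries (adjusted p 0.051 to 0.155) and with limma (0.0626).

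KRP5 (AT3G24810), which is linked to endoreduplication in elongating cells, had 7.68, 9.92 and 10.2 CPM in mock against 8.14, 6.87 and 8.67 CPM with AtCEP5 at 6 h. It had 8.54, 10.6 and 8.04 against 6.56, 5.86 and 6.62 CPM at 12 h, and 10.7, 8.05 and 10.9 against 6.73, 8.17 and 6.93 CPM at 24 h. The groups were apart at 12 h alone. No single time passed (−0.23, −0.51 and −0.44, each ± 0.18, adjusted p = 0.474, 0.0666 and 0.153, edgeR), and the average did (−0.39 ± 0.10, adjusted p = 0.00557).

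KRP2, which restrains the divisions that begin lateral roots and was the most abundant of the inhibitors, did not pass. Its CPM were 35.7, 46.6 and 36.8 in mock against 31.3, 37.5 and 31.2 with AtCEP5 at 6 h, 33.2, 38.9 and 34.3 against 41.8, 35.5 and 29.4 at 12 h, and 39.5, 30.5 and 37.9 against 23.5, 27.4 and 35.5 at 24 h. The groups overlapped throughout, with log2 fold changes of −0.25, 0.01 and −0.32 and an average of −0.19 ± 0.11 (adjusted p = 0.198, edgeR). SIM (AT5G04470), the founding member of the SIAMESE family that promotes endoreduplication, had 12.0, 14 and 13.7 CPM in mock against 15.1, 16.4 and 13.3 CPM at 6 h, 11.5, 13.2 and 13.8 against 15.2, 16.5 and 12.5 CPM at 12 h, and 12.2, 13.5 and 20.7 against 14.5, 12.0 and 13.3 CPM at 24 h. Its groups also overlapped, and its average was 0.05 ± 0.11 (adjusted p = 0.776, edgeR). KRP1 (AT2G23430), KRP3 (AT5G48820) and KRP6 (AT3G19150) did not pass, with averages of 0.04, −0.22 and 0.08, and neither did the kinase WEE1 (AT1G02970), at −0.22, −0.12 and −0.40.

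Both activators of the anaphase-promoting complex passed for the average, in opposite directions, beside 14.8% of all genes higher and 15.5% lower. CCS52A1 (AT4G22910), which promotes the switch from division to endoreduplication at the end of the root meristem, had 26.8, 23.4 and 23.3 CPM in mock against 19.3, 19.2 and 17.4 CPM with AtCEP5 at 6 h. It had 25, 23.3 and 28.4 against 17.8, 21.5 and 20.0 CPM at 12 h, and 24.5, 29.4 and 26.7 against 20.8, 15.2 and 19.7 CPM at 24 h. Every AtCEP5 library lay below every mock library of its time, although no single time passed (−0.40, −0.37 and −0.53, each ± 0.17, adjusted p = 0.153, 0.176 and 0.0597, edgeR). The average of −0.43 ± 0.10 did (adjusted p = 0.00184), and DESeq2 called 24 h as well (−0.54, adjusted p = 0.0312).

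CCS52A2 (AT4G11920), known to keep the quiescent centre of the root tip from dividing, had 6.35, 8.91 and 6.65 CPM in mock against 10.1, 9.36 and 10.7 CPM with AtCEP5 at 6 h. It had 7.92, 9.09 and 7.62 against 9.73, 8.75 and 8.63 CPM at 12 h, and 6.87, 7.78 and 8.15 against 7.79, 8.68 and 9.17 CPM at 24 h. The groups were apart at 6 h alone. The differences of 0.47, 0.14 and 0.17, each ± 0.16, did not pass (adjusted p = 0.0667, 0.643 and 0.648, edgeR), and the average passed (0.26 ± 0.09, adjusted p = 0.0393). Without mock 6 h replicate 2 the 6 h difference was 0.63 and passed (adjusted p = 0.0273). The average was lost without AtCEP5 6 h replicate 3, 12 h replicate 1, 12 h replicate 2, 24 h replicate 2 or 24 h replicate 3, or without mock 6 h replicate 1, 6 h replicate 3, 12 h replicate 1, 12 h replicate 3 or 24 h replicate 1 (adjusted p 0.0515 to 0.0795), and with no filter on low counts (0.087).

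The regulators of entry into DNA synthesis did not pass in any comparison of AtCEP5 with mock. RBR1 (AT3G12280), the retinoblastoma protein, had an average difference of −0.05 ± 0.12, and E2FA (AT2G36010), E2FB (AT5G22220) and E2FC (AT1G47870), the E2F factors, had averages of −0.31, 0.10 and −0.16. DEL1 (AT3G48160), an atypical E2F that represses endoreduplication genes, had −0.10. Over the 45 genes, the differences that did not pass lay between −0.58 (KRP1) and 0.61 (CYCA2;1) at 6 h, between −0.69 and 0.42 at 12 h, and between −0.60 and 0.44 at 24 h.

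Whether the AtCEP5 effect differed between times was tested directly. None of the 45 genes passed for 12 h minus 6 h, 24 h minus 6 h or 24 h minus 12 h, and edgeR gave 6, 2 and 2 genes at an unadjusted p under 0.05. DESeq2 called 0 with 6, 3 and 2 genes at that level, and limma called 0 with 6, 2 and 2. Over all genes 0.00502%, 0.0100% and 0.0150% passed, and 756, 818 and 802 of 19938 genes had an unadjusted p under 0.05 in edgeR. For CYCD1;1 the change from 6 to 24 h was −0.71 (unadjusted p = 0.00186, adjusted p = 0.707, edgeR). A call at 1 time and none at another is therefore not a shown difference between times for any of the genes above.

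At 6 h the replicate numbers met the rule set for pairing AtCEP5 and mock libraries, and the fit of those 6 libraries with the replicate as a block is given beside the unpaired one. It called 5 of the 45 genes lower in place of 2, and 3 higher in place of 2. Calls over all genes were more frequent as well, at 12.3% higher and 12.9% lower of 19035 genes tested. In the fit of all 21 libraries without the block they were 5.94% and 5.33%. These 2 fits differ in their libraries as well as in the block, and which of these changed the shares was not tested. Beside CYCB2;3, CYCD1;1, CYCD3;1 and KRP7, which passed in both, the block added KRP4 (0.39, adjusted p = 0.0413, edgeR) on the higher side. On the lower side it added CDKB1;1 (−0.33, adjusted p = 0.0312), KRP1 (−0.62, adjusted p = 0.0325) and CCS52A1 (−0.39, adjusted p = 0.0265).

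The second comparison set each treated group against the libraries taken before treatment. It holds everything that changed with time and handling as well as the peptide. The mock and AtCEP5 comparisons share the 3 libraries taken before treatment, so their values are given side by side and were not tested as a pair. Mock libraries had 11 of the 45 genes higher and 5 lower at 6 h, beside 18.2% and 20.5% of all genes, 10 and 5 at 12 h, beside 17.7% and 19.7%, and 12 and 5 at 24 h, beside 16.6% and 18.5%. AtCEP5 libraries had 14 higher and 3 lower at 6 h, beside 13.1% and 14.6% of all genes, 4 and 2 at 12 h, beside 10.5% and 13.2%, and 7 and 4 at 24 h, beside 12.8% and 15.2%. The medians of the 45 genes were 0.19, 0.30 and 0.29 for mock and 0.26, 0.21 and 0.22 for AtCEP5 at 6, 12 and 24 h, beside medians of all genes from −0.03 to 0.01. In mock, the 24 h count of 12 higher was 4 without mock 24 h replicate 3, 6 without the first library before treatment and 7 without mock 24 h replicate 2. The 5 lower in mock were 3 at 6 h without the first library before treatment or mock 6 h replicate 3, and 3 at 12 h without that first library or mock 12 h replicate 1 or 2. With AtCEP5, the 3 lower at 6 h were 1 without the first library before treatment or AtCEP5 6 h replicate 1 or 3. The 4 higher at 12 h were 1 to 3 whichever of the 6 libraries was left out, and the 4 lower at 24 h were 2 without AtCEP5 24 h replicate 1 or 2.

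**Figure D5:**
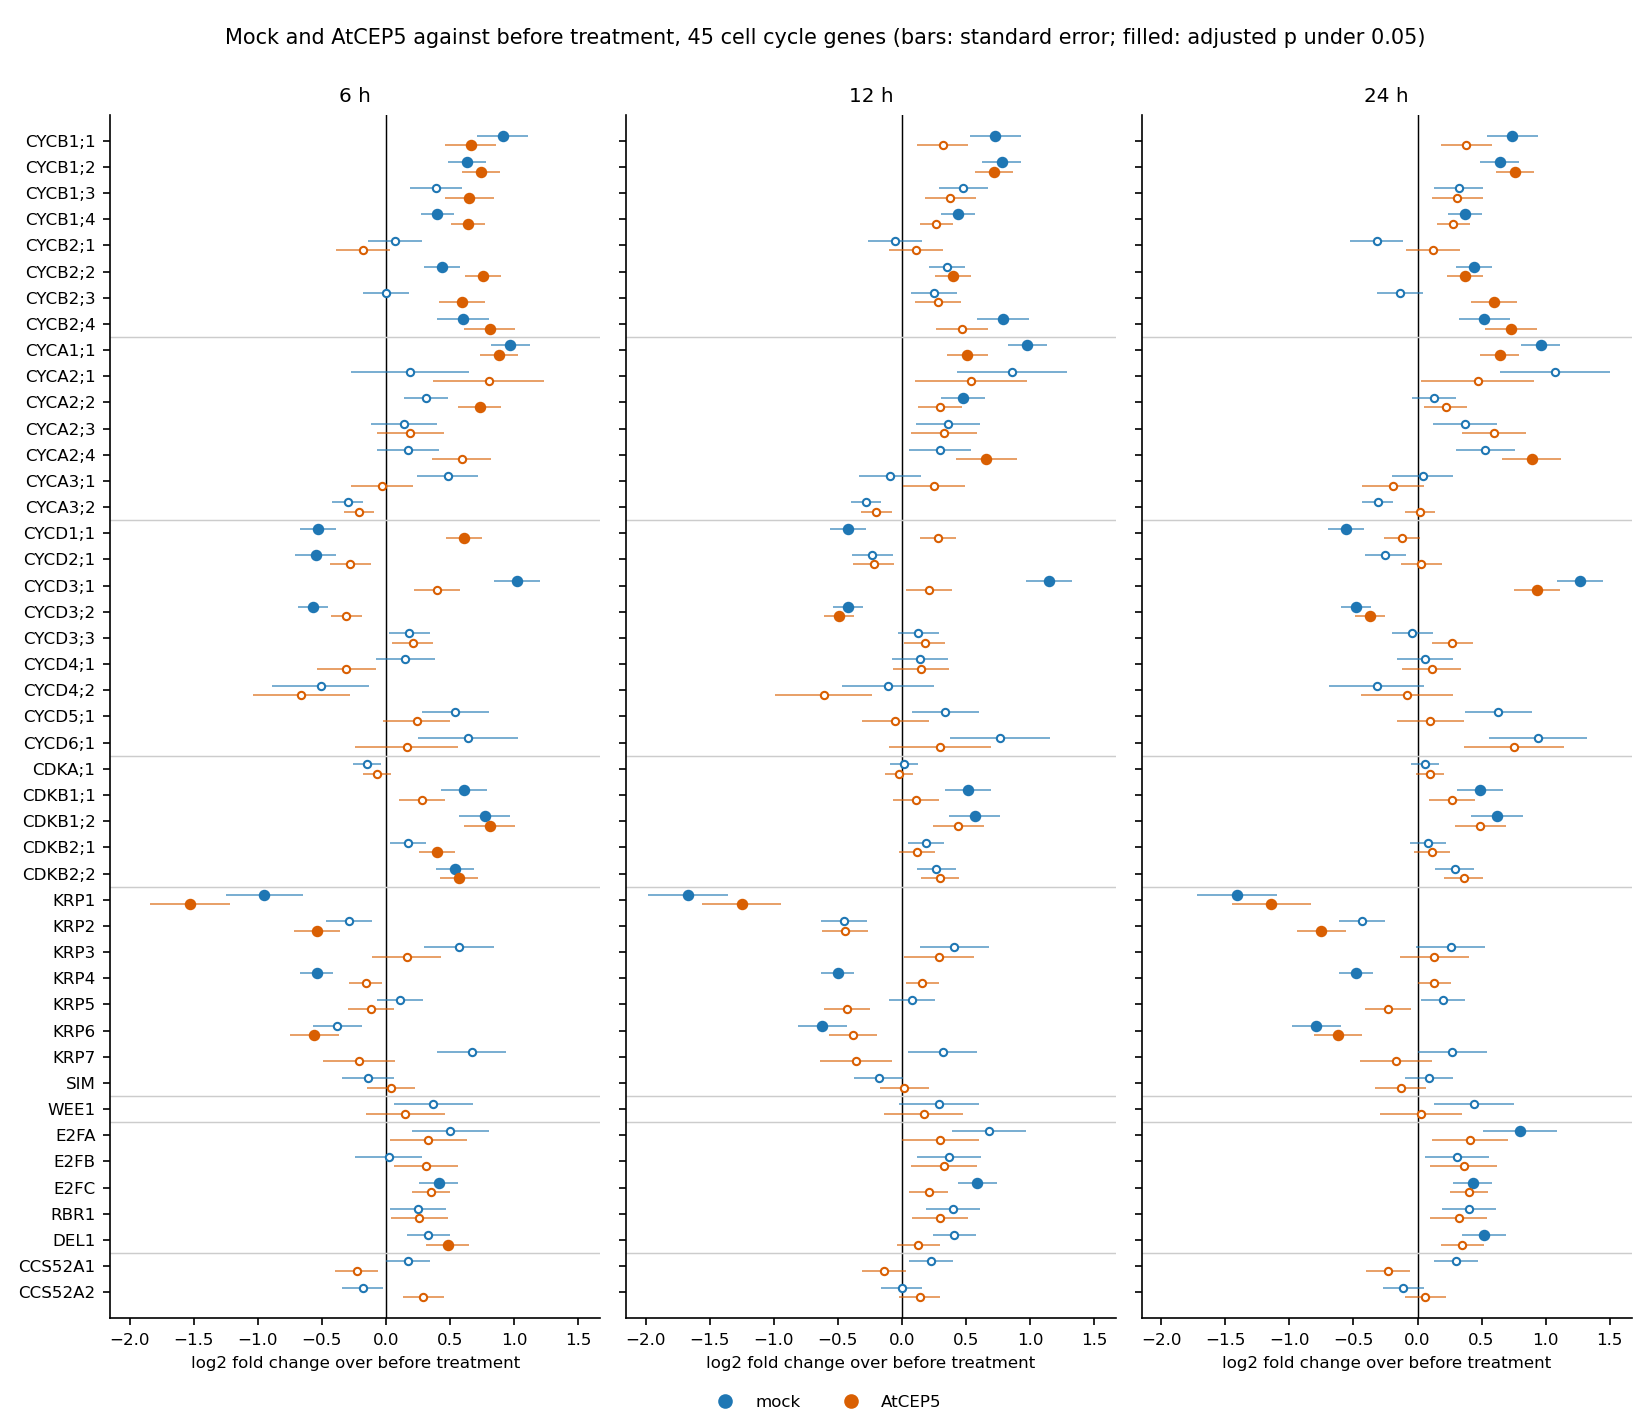
Log2 fold change of mock and of AtCEP5 against the libraries before treatment for the 45 genes at 6, 12 and 24 h, with bars for the standard error and filled points for genes that passed. B-type cyclins lie mostly above 0 in both, KRP1 lies lowest in each comparison, and CYCD3;1 is the highest gene in mock, at 1.02 to 1.27.

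Mitotic cyclins made up much of what was higher than before treatment. Of the 8 B-type cyclins 5, 4 and 5 rose in mock and 7, 2 and 4 rose with AtCEP5 at 6, 12 and 24 h, beside 18.2%, 17.7% and 16.6% of all genes in mock and 13.1%, 10.5% and 12.8% with AtCEP5. CYCB1;2 (AT5G06150), a B-type cyclin, was called in all 6 comparisons. It had 15.5, 18.2 and 19.4 CPM before treatment, 23.4 to 34.3 CPM in mock libraries and 26.3 to 33.1 CPM in AtCEP5 libraries, so each treated library was above all 3 taken before. Its log2 fold changes were 0.63, 0.78 and 0.64 in mock and 0.74, 0.72 and 0.76 with AtCEP5, each ± 0.15 (adjusted p 3.51e-04 to 0.00236, edgeR). CYCA1;1 rose from 12.1, 9.23 and 8.74 CPM by 0.97, 0.98 and 0.96 in mock and by 0.88, 0.51 and 0.64 with AtCEP5, where the 12 h call was lost without AtCEP5 12 h replicate 2 or without replicate 2 or 3 before treatment (adjusted p 0.0641 to 0.0886, edgeR). CYCB1;1 rose from 7.40, 9.5 and 10.5 CPM by 0.91, 0.73 and 0.74 in mock, where the 24 h call was lost without mock 24 h replicate 3 (0.46, adjusted p = 0.071). With AtCEP5 it rose by 0.66 at 6 h (adjusted p = 0.0159, edgeR), and 0.32 and 0.38 at 12 and 24 h did not pass. The mitotic kinase CDKB1;2 rose by 0.77, 0.57 and 0.62 in mock and by 0.81 at 6 h with AtCEP5, where the later values of 0.44 and 0.49 did not pass. It shares 281 exon bases with AT2G38630 on the opposite strand, a gene of 156 to 283 reads per library. The changes of AT2G38630 against before treatment did not pass.

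Further B-type cyclins filled these counts. CYCB2;4 (AT1G76310) rose by 0.60, 0.79 and 0.52 in mock and by 0.81 and 0.73 with AtCEP5 at 6 and 24 h. CYCB2;2 (AT4G35620) rose by 0.76, 0.40 and 0.37 with AtCEP5 and by 0.44 in mock at 6 and 24 h. Its 12 h call with AtCEP5 was lost without replicate 1 or 2 of that group or replicate 1 or 3 of the libraries before treatment (adjusted p 0.0854 to 0.109, edgeR). CYCA2;4 stood at 8.37, 10.4 and 9.68 CPM before treatment. It rose with AtCEP5 at 12 h (0.66) and 24 h (0.89), and the 12 h call was lost without any 1 of the 6 libraries compared (adjusted p 0.0526 to 0.122, edgeR). E2FA rose in mock at 24 h (0.80, adjusted p = 0.037, edgeR), a call lost without replicate 1 or 2 of the libraries before treatment or without mock 24 h replicate 3 (adjusted p 0.0597 to 0.248). Of its group, E2FC rose in mock at all 3 times (0.41, 0.59 and 0.43) and DEL1 in mock at 24 h (0.52) and with AtCEP5 at 6 h (0.48), both named after their values were seen. DEL1, at 73 to 145 reads per library, shares 307 exon bases with AT3G48170 on the opposite strand, which had 1122 to 2203. The changes of AT3G48170 in the same comparisons, 0.14 and −0.01, did not pass.

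The D-type cyclins parted here as well. CYCD3;1 had 12.6, 17.2 and 13.7 CPM before treatment and rose in mock by 1.02, 1.15 and 1.27, each ± 0.18 (adjusted p 1.11e-05 to 1.07e-04, edgeR). With AtCEP5 the values of 0.40 and 0.21 at 6 and 12 h did not pass (adjusted p = 0.103 and 0.438), and 0.93 at 24 h did (adjusted p = 4.88e-04). CYCD1;1 had 36.0, 33.6 and 28.3 CPM before treatment and fell in mock by 0.53, 0.42 and 0.56 on the log2 scale. The call at 12 h was lost without mock 12 h replicate 1 or 2 or without replicate 1 or 2 before treatment (adjusted p 0.0504 to 0.0746, edgeR). With AtCEP5 it rose at 6 h (0.61, adjusted p = 0.00221, edgeR), and 0.28 and −0.12 at 12 and 24 h did not pass. CYCD3;2, another D-type cyclin of the CYCD3 group, fell in mock by 0.57, 0.42 and 0.48, and with AtCEP5 by 0.49 at 12 h and 0.37 at 24 h, while −0.31 at 6 h did not pass (adjusted p = 0.0552). Its 24 h call with AtCEP5 was lost without AtCEP5 24 h replicate 1 (0.0808) or replicate 3 before treatment (0.0646). CYCD2;1 fell in mock at 6 h alone (−0.55, adjusted p = 0.00973, edgeR), a call lost without replicate 1 of the libraries before treatment (0.065) or without mock 6 h replicate 3 (0.0733).

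Inhibitors that edgeR called against before treatment were all lower. KRP1, a KRP inhibitor that slows divisions when overproduced, fell in all 6 comparisons. It had 19.5, 13.2 and 16.1 CPM before treatment, 6.68, 10.8 and 7.78 CPM in mock and 4.03, 8.27 and 4.55 CPM with AtCEP5 at 6 h. Later values were 3.88, 6.35 and 5.03 against 9.73, 6.07 and 4.6 CPM at 12 h, and 5.86, 6.97 and 5.43 against 6.32, 4.73 and 10.9 CPM at 24 h. All treated libraries lay below those taken before. The log2 fold changes were −0.95, −1.67 and −1.41 in mock and −1.53, −1.25 and −1.14 with AtCEP5, with standard errors of 0.30 to 0.31. The mock 6 h call was lost without mock 6 h replicate 1 (adjusted p = 0.0811, edgeR) or replicate 3 (0.0548) or without replicate 1 before treatment (0.0683), and the AtCEP5 24 h call without its replicate 2 (0.0562).

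KRP4 had 24.5, 21.9 and 23.8 CPM before treatment and fell in mock by 0.54, 0.50 and 0.48 on the log2 scale (adjusted p = 0.00234, 0.00473 and 0.00644, edgeR). With AtCEP5 its values of −0.16, 0.16 and 0.13 did not pass. KRP6, a KRP gene known from pollen, fell in mock by 0.62 at 12 h and 0.79 at 24 h, and with AtCEP5 by 0.56 at 6 h and 0.62 at 24 h. Without the first library before treatment, the highest of its 21 values, its mock 12 h, AtCEP5 6 h and AtCEP5 24 h calls were lost (adjusted p = 0.101, 0.198 and 0.139, edgeR). They were also lost without mock 12 h replicate 1 or 2, without AtCEP5 6 h replicate 1 or 3, and without AtCEP5 24 h replicate 1 or 2 (adjusted p 0.0543 to 0.124). KRP2 fell with AtCEP5 by 0.54 at 6 h and 0.75 at 24 h, and the 6 h call was lost without that same library (−0.31, adjusted p = 0.25) and without AtCEP5 6 h replicate 1 (0.115) or replicate 3 (0.101). Over the 8 inhibitors 2, 3 and 3 fell in mock, beside 20.5%, 19.7% and 18.5% of all genes. With AtCEP5 3, 1 and 3 fell, beside 14.6%, 13.2% and 15.2%. The 2 in mock at 6 h and the 1 with AtCEP5 at 12 h were near the background. The other counts were 3 of 8 genes, too few to read as a trait of the inhibitors. Neither edgeR nor limma called any inhibitor higher. At an unadjusted p under 0.05, edgeR had 2 higher, both in mock at 6 h (KRP3 at 0.57 and KRP7 at 0.67), where DESeq2 called 1.

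Other cell cycle lists gave the setting of these values, again as counts. Of 12 genes of DNA replication, none passed for AtCEP5 against mock at a single time by edgeR, DESeq2 or limma, with 1, 2 and 1 lower at an unadjusted p under 0.05 in edgeR at 6, 12 and 24 h. For the average MCM3, a subunit of the replicative helicase, fell by 0.30 (adjusted p = 0.0272, edgeR) and PCNA1, the sliding clamp of DNA polymerase, fell by 0.42 (adjusted p = 0.00202). Over all genes 15.5% were lower for the average, so this count was near the background. The median of the 12 genes was −0.18 for the average, beside 0.00 over all genes. Against before treatment 9, 10 and 7 of the 12 rose in mock and 4, 1 and 5 with AtCEP5, none lower, beside 18.2%, 17.7% and 16.6% of all genes higher in mock and 13.1%, 10.5% and 12.8% with AtCEP5. Of 19 genes of mitosis and cytokinesis, MYB3R5, a repressor of mitotic genes, rose with AtCEP5 against mock at 6 h (0.84 ± 0.22, adjusted p = 0.0164, edgeR) and for the average (0.50, adjusted p = 0.00393), and GIG1, an inhibitor of the anaphase-promoting complex, rose for the average (0.29, adjusted p = 0.0293). Over all genes 5.94% were higher at 6 h and 14.8% for the average, so these counts were not above the background. Against before treatment 7, 10 and 8 of the 19 rose in mock and 9, 5 and 9 with AtCEP5. These are to be read beside the shares of all genes given for the replication genes against before treatment. None of 11 further CDK partners and regulators and none of the 7 tested of 8 SIAMESE-related inhibitors passed in edgeR for AtCEP5 against mock, at any time or for the average. At an unadjusted p under 0.05 the first list had 1 gene, lower in the average, which DESeq2 called, and the second had 1 lower at 6 h, 1 higher at 12 h and 2 higher in the average, of which no tool called any.

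Some markers of cell types differed between mock and AtCEP5, and the sums of others overlapped. Summed CPM of the endodermis and of the xylem markers overlapped between mock and AtCEP5 at every time. The most abundant markers weigh most in these sums, CYP86A1 and CASP1 (medians of 177 and 92.5 FPKM) and XCP1 and XCP2 (53.3 and 49.4 FPKM). The summed CPM of 5 root hair markers was 186 to 219 in mock and 116 to 138 with AtCEP5 at 6 h, 167 to 180 against 120 to 137 at 12 h, and 155 to 271 against 136 to 146 at 24 h. Of these, EXPA18 fell at all 3 times, COBL9 at 6 and 12 h and EXP7 at 6 h. The shares of all genes lower were 5.33%, 5.41% and 4.12% at 6, 12 and 24 h. Summed CPM of 8 root meristem markers overlapped between mock and AtCEP5 at every time (110 to 145 against 139 to 147 at 6 h, 127 to 160 against 130 to 161 at 12 h, 112 to 145 against 142 to 149 at 24 h). Within that list the ground tissue factor JKD rose at 6 h (0.61) and 12 h (0.60), and WOX5, the marker of the quiescent centre, rose at 24 h (0.82). The shares of all genes higher were 5.94%, 6.71% and 3.70% at these times. The single markers named are some of each list, and the other members are given only within the sums. The named markers therefore do not speak for their lists. The 5 lateral root primordium markers summed to 16.4 to 17.4 CPM in mock and 11.2 to 15.5 CPM with AtCEP5 at 12 h, and to 15 to 17.2 against 9.88 to 13 CPM at 24 h. The 5 shoot markers, genes of photosynthesis, summed to 192 to 569 CPM before treatment and 102 to 185 CPM in mock at 6 h, and at 12 h to 114 to 159 CPM in mock and 173 to 275 CPM with AtCEP5, with no overlap. The 3 root cap markers were also apart at 6 h, at 29.9 to 35.8 CPM in mock and 26.7 to 29 CPM with AtCEP5. Sums of mock and AtCEP5 overlapped for root cap markers at 12 and 24 h. They also overlapped for lateral root primordium markers at 6 h and for shoot markers at 6 and 24 h. The part of these cell types in the levels of the cell cycle genes was not tested.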

How the data were processed

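The deposited table holds read counts per gene for 21 libraries and a second deposited table holds FPKM. Per the submitters' processing notes the tools were STAR 2.7.8a, HTSeq and StringTie 2.1.3. Neither a genome build nor a strand setting is given in the sources used here. The spans of all 45 genes matched TAIR10.1. All 461492 FPKM values above 0 in the deposited file were 10 times the value recomputed from counts and exon length (relative tolerance 0.001), so they were divided by 10. No column of the tables lacked a sample.

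Counts were fitted with edgeR 4.0.16 in R 4.3.3 (TMM scaling, edgeR's filter by group, quasi-likelihood test, 7 groups in 1 fit with 14 residual degrees of freedom), and Benjamini-Hochberg adjustment ran over 19938 genes. A gene was called at an adjusted p under 0.05. The step was tested on simulated data. Genes given with every library's value were those that passed for AtCEP5 against mock, and CYCB1;1, CDKA;1, KRP2 and SIM. Against before treatment, up to 5 passing genes per direction with the largest log2 fold change were named. The genes and lists were chosen with earlier results of these data known. Alternatives were DESeq2's size factors, other filters, a replicate block, fits of 6 libraries, DESeq2 1.42.0, limma 3.58.1 on log2(FPKM + 0.1), and each library left out. Without strand, reads of overlapping genes cannot be told apart. Exons of 13 of the 45 genes overlap a gene on the opposite strand, and those of CYCD3;1 overlap 1 on the same strand. Windows and gene positions are 1-based and come from RefSeq's TAIR10.1 annotation, and figures were drawn with matplotlib 3.10.9 in Python 3.11.15.

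Replicate numbers are in the labels, which do not say what a number marks. Deviations of same-numbered AtCEP5 and mock libraries from their group means correlated at 0.182, 0.117 and 0.241 at 6 h, all above the 0.1 set for pairing, and were not all above it in any other comparison. The block is therefore given beside the results at 6 h.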

Additional observations from a re-analysis of the deposited data

How the results depend on the processing

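The average effects of CYCB2;3, CYCD1;1, CYCD3;1, KRP4, KRP5, KRP7 and CCS52A1 kept their direction and their call in every alternative run. Of the counts of called genes, these moved by more than 1.5 times. For AtCEP5 against mock at 6 h, limma gave 4 higher and 0 lower in place of 2 and 2. At 12 h the 2 lower became 1 with DESeq2's size factors, with no filter, with the stricter filter (1 CPM in 6 libraries), with either replicate block, and without the 2 libraries highest in ribosomal RNA, a setting chosen after seeing the data. Without those 2 libraries the 6 h lower count was 1 and the average's lower count 5 in place of 8. At 24 h the 2 higher were 1 in the fit of the 6 libraries compared, and DESeq2 gave 1 lower (CCS52A1) in place of 0. In that fit of 6 libraries, against before treatment, mock at 24 h had 3 higher and 2 lower, AtCEP5 at 6 h 1 lower, at 12 h 2 higher and 1 lower, and at 24 h 2 lower. limma gave AtCEP5 at 12 h 2 higher. The cause was not tested.

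With the replicate block in the fit of 6 libraries, AtCEP5 against mock had 5 lower at 6 h, 1 lower at 12 h and 0 higher at 24 h. Against before treatment the block gave mock at 6 h 5 higher and 2 lower, AtCEP5 at 6 h 1 lower, at 12 h 2 higher, and at 24 h 4 higher and 1 lower. Outside 6 h the samples share only a number. With the block in the fit of 21 libraries, CYCA1;1 at 12 h lost its call (adjusted p = 0.0584) and the other 116 single-gene results kept their side of the threshold.

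Leaving out 1 library gave, for AtCEP5 against mock, 1 to 2 higher and 0 to 1 lower at 6 h, 2 to 2 and 1 to 1 at 12 h, 1 to 4 and 0 to 0 at 24 h, and 3 to 6 and 5 to 8 for the average. The average's higher count of 3 came without AtCEP5 6 h replicate 3, 12 h replicate 1, 24 h replicate 2 or mock 24 h replicate 1, and its lower count of 5 without mock 12 h replicate 3. Mock against before treatment had 9 to 11 higher and 3 to 5 lower at 6 h, 7 to 11 and 3 to 5 at 12 h, and 4 to 14 and 5 to 6 at 24 h. AtCEP5 against before treatment had 10 to 14 and 1 to 3 at 6 h, 1 to 3 and 2 to 3 at 12 h, and 6 to 9 and 2 to 4 at 24 h.

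The log2 values that turned direction were all small and uncalled. CYCA1;1 at 6 h was 0.01 without mock 6 h replicate 2 and 0.00 without the 2 libraries highest in ribosomal RNA, with −0.19 to 0.01 over the libraries left out. CYCB2;3 at 12 h was −0.01 and −0.02 without AtCEP5 replicate 1 or 2, and −0.01 and −0.09 without mock replicate 1 or 2 (−0.09 to 0.28 over all 6). For CDKA;1 the first AtCEP5 library left out gave 0.02 at 12 h, and leaving out the first or the second mock library gave 0.00 and 0.00 (−0.05 to 0.02 over all 6). At 24 h it was −0.02 and −0.03 without AtCEP5 or mock replicate 1 (−0.03 to 0.09 over all 6). KRP2 at 12 h was 0.00 with the block in the fit of 6, −0.12 and −0.02 without AtCEP5 or mock replicate 1 (−0.12 to 0.15 over all 6), and −0.02 in limma. SIM at 24 h was 0.04 without mock replicate 3 (−0.36 to 0.04 over all 6). With 3 libraries a group, depth and replicate number limit what can be seen: genes read at a few CPM, such as KRP7 and CYCA2;1, had standard errors of 0.27 to 0.43, against 0.11 for CDKA;1.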
